A study of Homo sapiens with 15 samples.

Results

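The nuclear lamina and HMGB genes are a set of 10 genes whose products shape the nuclear envelope and bend chromatin, and several of them are used as markers of cellular senescence. They were taken by symbol from a table of 60670 genes, each symbol matched 1 Ensembl identifier, and all 10 were among the 18563 genes with enough counts to test. The members are the lamins LMNB1, LMNB2 and LMNA, the lamin B receptor LBR, emerin (EMD), the SUN-domain proteins SUN1 and SUN2, and the HMG-box proteins HMGB1, HMGB2 and HMGB3. They were measured by RNA sequencing in HT-1080, an established line of human fibrosarcoma cells, in 5 groups of 3 libraries. Cycling cells in the vehicle DMSO carry the time label 6 h. The other 4 groups are senescent cells, which had expressed a dominant negative TRF2 mutant for 6 days, a treatment that uncaps telomeres. They were then given DMSO or 1 uM of the kinase inhibitor GNF-7, each for 6 h or for 24 h. The labels number the libraries as biological replicates but do not describe separate clones, and there is no group of cycling cells with GNF-7 and none of cycling cells at 24 h. How the vector in the cycling cells was handled is not stated in the labels used here.

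As background, the lamina is a mesh of intermediate filaments under the inner nuclear membrane. B-type lamins keep a farnesyl anchor in the membrane, whereas lamin A loses it during maturation and lamin C, from the same gene LMNA, never has it. LBR binds B-type lamins and heterochromatin and also has sterol reductase activity. Emerin binds lamins and the chromatin protein BANF1, and SUN1 and SUN2 span the inner membrane and join the lamina to nesprins and the cytoskeleton. HMGB1, HMGB2 and HMGB3 are abundant chromatin proteins that bend DNA, and HMGB1 is also released from stressed and senescent cells as an alarm signal. Loss of LMNB1 and HMGB2 from the nucleus is a common marker of senescence.

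Library totals ranged from 25991007 to 32323393 counts, and the lowest count of any member in any library was 317. TERF2, the gene of the mutant, was at 58.2 CPM (counts per 1000000 counts of the scaled library) in cycling cells. In senescent cells TERF2 was at 287 CPM in vehicle and 222 CPM with GNF-7 at 6 h, and at 220 and 132 CPM at 24 h. It was called lower with GNF-7 at 6 h (log2 fold change -0.371) and at 24 h (-0.734). In vehicle it was called lower at 24 h than at 6 h (-0.385). Whether these differences in TERF2 had a part in the other values was not tested. The count of TERF2 includes both the introduced and the cell's own transcript where their sequences are shared. The mesenchymal markers VIM, FN1, SPARC, CDH2 and LGALS1 were at 53.8 CPM or more in every library, S100A4 was at 3.10 CPM or less, and the 3 epithelial and 3 blood markers were at 0.564 CPM or less. The endothelial markers PECAM1 and CDH5 reached 1.06 and 0.274 CPM. The share of counts from mitochondrial genes moved with the groups, from 3.75 to 5.01% in cycling libraries, 11.2 to 12.4% in senescent vehicle at 6 h, 13.2 to 15.3% with GNF-7 at 6 h, 15.1 to 18.7% in vehicle at 24 h and 22.6 to 24.1% with GNF-7 at 24 h. Leaving these genes out of the scaling changed no call of a member in senescence or with GNF-7, and this share's part in the results was otherwise not tested. CPM values are shares of a library, so in these bulk samples fewer cells with a transcript and less of it per cell cannot be told apart.

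All 10 members had lower levels in senescent than in cycling vehicle cells, and promoter windows of HMGB1, HMGB3 and LMNB1 are shown first. RefSeq start sites on GRCh38.p14 were given for 8 of the 10 members, with 16 windows of 250 bases before a start. HMGB1 and HMGB3 are shown because they fell together in senescence and moved in opposite directions with GNF-7, and LMNB1 because it had the largest fall of the set. Of each gene's windows the one with the most CCAAT words is printed, with 3, 3 and 1. The other 2 windows of HMGB1 held 1 and 0, and the other window of HMGB3 and that of LMNB1 held 0. Capitals mark matches on either strand to the CCAAT box, searched as CCAAT, and to the cell cycle homology region (CHR), searched as TTTGAA with the variant word TTCGAA. E2F sites were searched as TTTCCCGC with the variant words TTTCGCGC as well as TTTGCCGC and also TTTGGCGC.
HMGB1, chr13:30465937-30466186, minus strand: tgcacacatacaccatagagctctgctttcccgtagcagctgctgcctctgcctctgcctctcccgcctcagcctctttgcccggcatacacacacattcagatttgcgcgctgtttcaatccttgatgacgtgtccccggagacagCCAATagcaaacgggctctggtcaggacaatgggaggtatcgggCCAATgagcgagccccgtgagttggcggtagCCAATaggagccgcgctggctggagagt
HMGB3, chrX:150983085-150983334, plus strand: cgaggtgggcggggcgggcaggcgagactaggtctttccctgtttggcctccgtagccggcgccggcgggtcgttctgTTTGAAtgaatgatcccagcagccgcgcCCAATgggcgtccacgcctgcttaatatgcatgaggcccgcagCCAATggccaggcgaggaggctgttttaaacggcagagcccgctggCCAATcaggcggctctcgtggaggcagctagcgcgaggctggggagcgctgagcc
LMNB1, chr5:126776886-126777135, plus strand: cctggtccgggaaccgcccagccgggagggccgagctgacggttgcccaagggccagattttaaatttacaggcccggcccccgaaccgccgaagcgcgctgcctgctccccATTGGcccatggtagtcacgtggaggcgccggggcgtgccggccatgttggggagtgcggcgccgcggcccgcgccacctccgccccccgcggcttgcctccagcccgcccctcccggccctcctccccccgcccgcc

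The HMGB1 and HMGB3 windows each held 3 CCAAT words, which 2.93% of 35116 RefSeq windows of the same length held. That share is over single windows, whereas each printed window was the one of its gene with the most CCAAT words. No share per gene was computed. These were the only 2 of the members' 16 windows with 3 or more. At least 1 CCAAT word was in 7 of the 16 windows, against 32.0% of all windows. A CHR word was in 4 windows (LMNB2, SUN2, HMGB1 and HMGB3), against 14.3% of all windows, and an E2F word in 1 window of LMNA, against 2.79%. The word TGATGNAA, the core of the element bound by ATF4 with C/EBP factors, was in 0 of the 16 windows and in 3.14% of all windows. These matches describe letters in 1 window per start and say nothing of binding.

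The first comparison asked how the genes differed between senescent and cycling cells in vehicle at 6 h. Of the 10 members 10 were called lower and 0 higher (edgeR quasi-likelihood test, adjusted p under 0.05), where 34.4% of all genes tested were called lower and 35.6% higher. The median log2 fold change was -1.22 over the members and 0.06 over all genes tested. The falls spanned a wide range, with LMNB1, HMGB2 and LBR at one end and LMNA and SUN2 at the other. For each of the 10 members the 3 senescent libraries lay below the 3 cycling libraries.

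**Figure D1:**
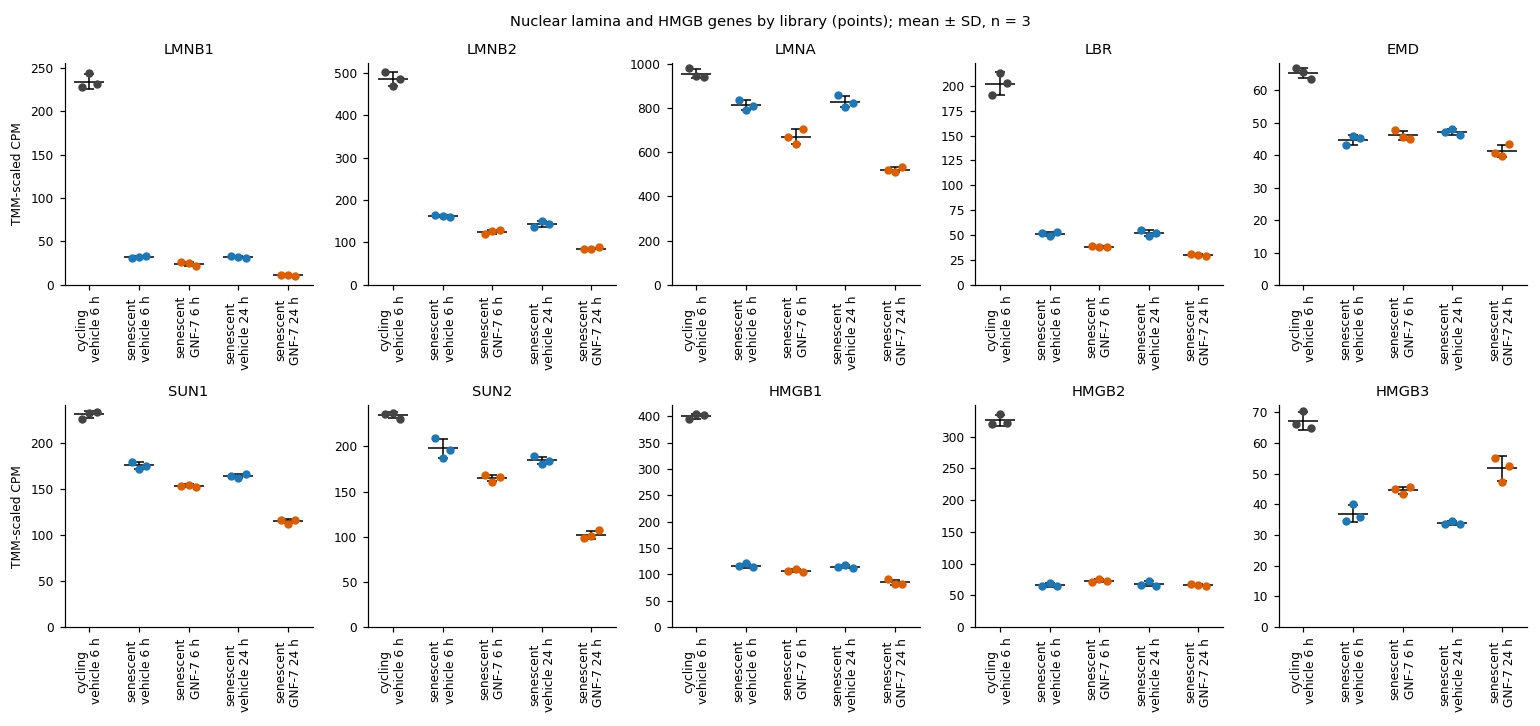
CPM with TMM scaling (vertical axes, from 0) of each gene in the 15 libraries, by group; points are libraries and black bars the mean ± SD of 3. LMNB1, LMNB2, LBR, HMGB1 and HMGB2 drop steeply from cycling to senescent cells, LMNA and the SUN genes drop little, and HMGB3 is higher in both GNF-7 groups than in the matching vehicle groups.

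LMNB1 (ENSG00000113368, GRCh38 chromosome 5, 126776623 to 126837020, plus strand) was the member with the largest fall. Its cycling libraries were at 227, 244 and 231 CPM and its senescent vehicle libraries at 30.9, 32.5 and 33.1 CPM. The level in senescent cells was 13.8% of the cycling mean, which edgeR put at -2.86 on the log2 scale (SE 0.053, adjusted p 2.7e-49). Its fold change ranked 37 from the lowest among the 18563 genes tested. LMNB2 (ENSG00000176619, chromosome 19, 2427638 to 2456996, minus strand), the other B-type lamin gene, went from 502, 469 and 485 CPM to 165, 162 and 160 CPM, for a log2 value of -1.58 (SE 0.039, adjusted p 8.51e-43 by edgeR). It shares exon positions with TIMM13 on the same strand, so its counts depend on how the authors treated overlapping reads.

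LMNA (ENSG00000160789, chromosome 1, 156082573 to 156140089, plus strand), which encodes lamins A and C, changed far less than the B-type lamin genes. It was at 979, 945 and 940 CPM in cycling libraries and at 835, 791 and 809 CPM in senescent ones, for a log2 value of -0.23 (SE 0.035, adjusted p 2.93e-08 by edgeR). It stood at -0.10 when libraries were scaled by total counts and at -0.08 when genes under an average of 5 CPM were left out (the stricter filter), and both were called. Within each library the log2 ratio of LMNB1 to LMNA counts, which no scaling can move, was -2.03 ± 0.075 (SD, n = 3) in cycling and -4.66 ± 0.086 in senescent vehicle cells. The difference of -2.63 separated the libraries without overlap, with an exact two-sided permutation p of 0.1, the smallest that 3 against 3 libraries allow (0.16 adjusted over 16 ratio comparisons).

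Per kilobase of the longest principal transcript in GENCODE 29, cycling cells had 299 ± 6.67 CPM per kb of LMNA, 104 ± 3.47 of LMNB2 and 81.3 ± 2.97 of LMNB1 (SD, n = 3). In senescent vehicle cells at 6 h the levels per kb were 254 ± 6.88 for LMNA, 34.7 ± 0.566 for LMNB2 and 11.2 ± 0.401 for LMNB1. The order LMNA, LMNB2, LMNB1 held in both groups, also when the length of all annotated exons was used. The step between LMNB2 and LMNB1 was wider in senescent cells, where their log2 ratio of counts (LMNB1 to LMNB2) was -2.33 ± 0.076 against -1.05 ± 0.099 in cycling cells.

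LBR (ENSG00000143815, chromosome 1, 225401502 to 225428925, minus strand), the membrane receptor for B-type lamins, followed them down. It was at 191, 213 and 203 CPM in cycling and at 52.1, 48.8 and 53.0 CPM in senescent vehicle libraries, for a log2 value of -1.98 (SE 0.048, adjusted p 4.8e-43 by edgeR). Of its 2 relatives with sterol reductase activity, DHCR7, which makes cholesterol from its last precursor, fell by 0.82 on the log2 scale, and TM7SF2, the other sterol C14 reductase, had a value of -0.04 and was not called.

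The inner membrane proteins that bind lamin A showed small falls. EMD (ENSG00000102119, chromosome X, 154379197 to 154381523, plus strand) was between 63.6 and 67.0 CPM in cycling and between 43.1 and 46.1 CPM in senescent libraries (log2 fold change -0.54, edgeR adjusted p 1.71e-14). SUN1 (ENSG00000164828, chromosome 7, 816615 to 896435, plus strand) was between 227 and 235 CPM in cycling and between 173 and 180 CPM in senescent libraries (-0.40, adjusted p 6.21e-15). SUN2 (ENSG00000100242, chromosome 22, 38734725 to 38794143, minus strand) was between 231 and 238 CPM in cycling and between 188 and 209 CPM in senescent libraries (-0.25, adjusted p 9.78e-08). The values of SUN1 and SUN2 were -0.26 and -0.12 with total counts, and -0.25 and -0.10 under the stricter filter. Both genes share exon positions with other genes, SUN1 with GET4 and SUN2 with DNAL4 on the same strand and with GTPBP1 on the other, so their counts are less certain than those of LMNB1, LBR and EMD, for which the annotation holds no overlapping gene.

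Among the HMG-box genes, HMGB2 fell most. HMGB2 (ENSG00000164104, chromosome 4, 173331695 to 173335125, minus strand) was at 320, 336 and 321 CPM in cycling and at 64.1, 69.2 and 65.3 CPM in senescent vehicle libraries, 20.4% of the cycling mean (log2 fold change -2.30, SE 0.043, edgeR adjusted p 9.16e-49). HMGB1 (ENSG00000189403, chromosome 13, 30456704 to 30617597, minus strand) went from 394, 403 and 402 CPM to 115, 121 and 113 CPM (-1.78, SE 0.040, adjusted p 5.29e-45). HMGB3 (ENSG00000029993, chromosome X, 150980509 to 150990775, plus strand) went from 66.2, 70.4 and 64.8 CPM to 34.7, 40.0 and 35.9 CPM (-0.86, SE 0.057, adjusted p 3.82e-21). The libraries of the 2 groups were thus separated for each HMGB gene, with HMGB3 retaining 54.9% of its cycling level.

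HMGB1 has many processed pseudogenes, and reads may be shared with them. The 48 HMGB1 pseudogenes in the table together held 5.44 to 7.94% as many counts as HMGB1 itself, depending on the library. For HMGB2 the figure was at most 0.457% and for HMGB3 at most 2.00%. Within libraries the log2 ratio of HMGB2 to HMGB1 counts was -0.30 ± 0.031 (SD, n = 3) in cycling and -0.81 ± 0.029 in senescent vehicle cells, so HMGB2 fell further than HMGB1 by 0.51 (exact permutation p 0.1).

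**Figure D2:**
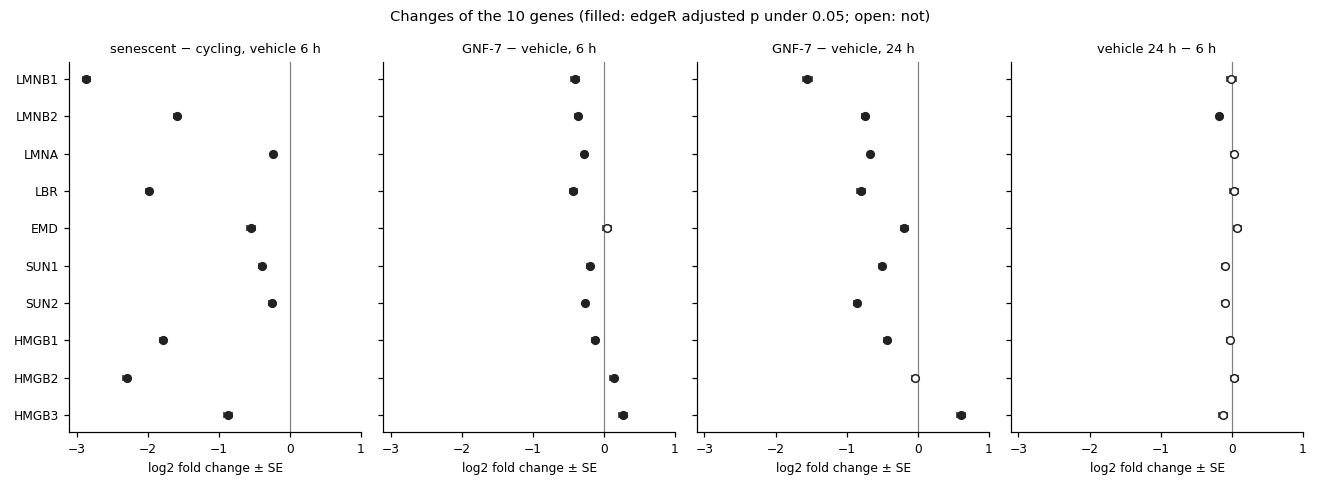
Log2 fold change (horizontal axes) of the 10 genes in 4 comparisons, with the standard error as bars; filled points are called by edgeR at an adjusted p under 0.05. In senescence every point lies below 0, from -2.86 (LMNB1) to -0.23 (LMNA), and after 24 h of GNF-7 HMGB3 alone is called higher (0.61).

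The second comparison asked what GNF-7 did within senescent cells after 6 h. Of the 10 members 7 were called lower, 2 were called higher and EMD was not called, where 21.4% of all genes tested were called lower and 17.9% higher. The changes were small, between -0.43 and 0.27, with a median of -0.23 against 0.01 over all genes tested. The lamins, LBR, the SUN genes and HMGB1 fell, while HMGB2 and HMGB3 rose.

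LMNB1 was at 26.0, 25.7 and 21.5 CPM with GNF-7 at 6 h, below each vehicle library at that time (log2 fold change -0.40, SE 0.059, edgeR adjusted p 6.58e-08). LBR was at 38.7, 37.9 and 37.7 CPM against 48.8 to 53.0 CPM in vehicle (-0.43, adjusted p 3.3e-10), and this was the largest fall of the set at this time. The log2 fold changes were -0.37 for LMNB2, -0.28 for LMNA, -0.26 for SUN2 and -0.20 for SUN1. Between the lamins the log2 ratio of LMNB1 to LMNA moved by -0.13, with libraries that overlapped (exact permutation p 0.5). It ranged from -0.205 to -0.002 as single libraries were left out, with -0.002 without GNF-7 6 h replicate 3.

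HMGB3 was at 44.9, 43.2 and 45.5 CPM with GNF-7 at 6 h and at 34.7 to 40.0 CPM in vehicle (0.27, SE 0.058, edgeR adjusted p 0.0001). HMGB2 was at 70.9, 75.0 and 73.0 CPM with GNF-7, and the highest vehicle library was at 69.2 CPM (0.14, adjusted p 0.00923). Its call was lost without a filter on low counts (0.12, adjusted p 0.0583) and without senescent vehicle 6 h replicate 1 (0.12, adjusted p 0.0686), in a range of 0.12 to 0.19 over the alternatives. HMGB1 was lower by a similar amount (-0.12, adjusted p 0.0113), and 3 alternatives ended that call, namely the stricter filter (-0.07, adjusted p 0.127), leaving out senescent vehicle 6 h replicate 2 (-0.10) and leaving out GNF-7 6 h replicate 3 (-0.11), in a range of -0.15 to -0.07 over all alternatives. EMD had a log2 fold change of 0.04 with a 95% interval from -0.06 to 0.15, and its libraries overlapped.

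At 24 h GNF-7 was set against vehicle of that time. Of the 10 members 8 were called lower and 1 higher, where 29.7% of all genes tested were called lower and 29.3% higher. The median log2 fold change was -0.59 over the members and 0.04 over all genes tested. LMNB1 fell most, LMNA, LMNB2, LBR and SUN2 fell to between 55.3 and 62.9% of vehicle, HMGB2 was not called, and HMGB3 rose.

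LMNB1 was at 10.9, 11.3 and 10.5 CPM with GNF-7 at 24 h and at 32.9, 32.7 and 30.6 CPM in vehicle at 24 h. The log2 fold change was -1.55 (SE 0.067, edgeR adjusted p 8.91e-30). The level with GNF-7 at 24 h was 4.67% of the cycling mean, against 13.7% in vehicle at the same time. LMNB2 went from 137, 150 and 144 CPM to 84.4, 84.5 and 88.5 CPM (-0.74, SE 0.041, adjusted p 1.55e-24). LMNA went from 858, 806 and 821 CPM to 521, 510 and 534 CPM (-0.67, SE 0.036, adjusted p 3.52e-25), a larger change than in senescence itself (-0.23). Those 2 comparisons share no library, and the difference between them was not tested.

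At 24 h LMNB1 fell further than the other lamin genes within the same libraries. The log2 ratio of LMNB1 to LMNA was -4.69 ± 0.062 (SD, n = 3) in vehicle and -5.58 ± 0.087 with GNF-7, and that of LMNB1 to LMNB2 was -2.16 ± 0.094 in vehicle and -2.98 ± 0.088 with GNF-7. Neither pair of groups overlapped, and the exact permutation p was 0.1 for both, the smallest possible (0.16 adjusted over 16). The log2 ratio of SUN1 to SUN2 counts rose from -0.17 ± 0.031 in vehicle to 0.18 ± 0.067 with GNF-7. Counts are not corrected for length, so the sign of this ratio does not order the 2 genes. Per kb of principal transcript SUN1 and SUN2 were at 42.5 and 45.5 CPM in vehicle and at 29.9 and 25.2 CPM with GNF-7. Per kb of all annotated exons SUN2 was the higher in vehicle (28.5 against 13.9 CPM) and with GNF-7 (15.7 against 9.78 CPM). SUN2 had fallen to 98.1, 101 and 107 CPM from 189, 181 and 184 CPM (-0.86, edgeR adjusted p 1.62e-27), and SUN1 to 117, 112 and 117 CPM from 165, 162 and 167 CPM (-0.51, adjusted p 1.34e-18).

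**Figure D3:**
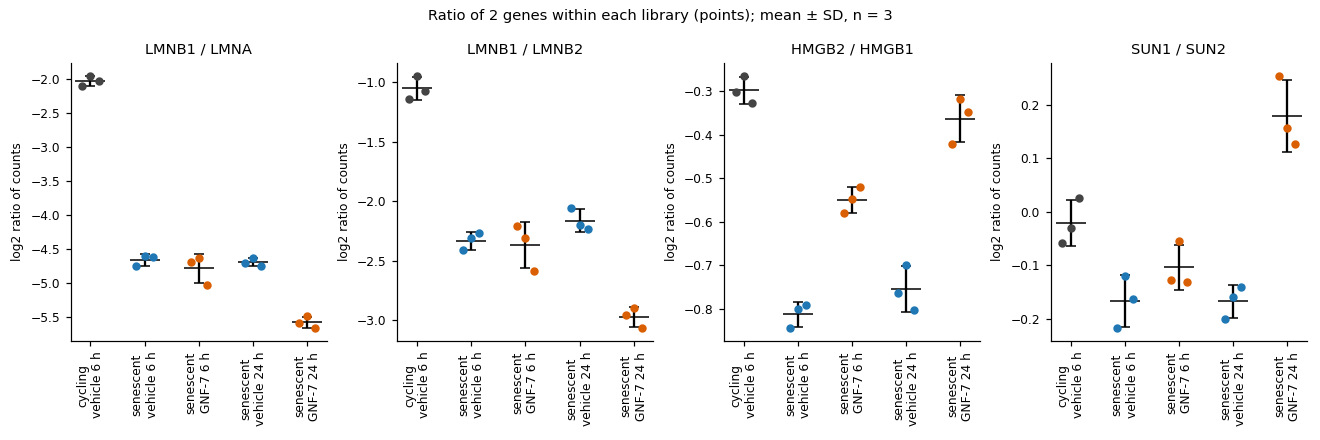
Log2 ratio of the counts of 2 genes in the same library (vertical axes), by group; points are libraries and black bars the mean ± SD of 3. LMNB1 falls against LMNA and LMNB2 in senescence and again with GNF-7 at 24 h, and HMGB2 rises against HMGB1 with GNF-7. SUN1 rises against SUN2 with GNF-7 at 24 h (0.18 against -0.17 in vehicle, counts not corrected for length).

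LBR at 24 h was at 30.8, 30.6 and 29.1 CPM with GNF-7 and at 55.3, 49.4 and 52.3 CPM in vehicle (log2 fold change -0.80, SE 0.053, edgeR adjusted p 1.47e-20). Its relative DHCR7 also fell (-0.98), while TM7SF2 rose by 0.34 (adjusted p 0.0367), with libraries that overlapped. That call was lost with DESeq2 and limma voom, and when replicate 1 or 3 of vehicle or replicate 2 or 3 of GNF-7 at 24 h was left out, with values from 0.21 to 0.33. EMD changed least of the lamina genes, from 47.3, 48.0 and 46.1 CPM to 40.8, 39.9 and 43.6 CPM (-0.19, adjusted p 0.00186), and the stricter filter ended its call (-0.09, adjusted p 0.129, in a range of -0.23 to -0.09).

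The 3 HMGB genes went 3 ways at 24 h. HMGB1 fell from 113, 117 and 113 CPM to 90.6, 82.2 and 82.6 CPM (-0.43, SE 0.041, edgeR adjusted p 5.18e-14). HMGB2 was at 67.6, 65.9 and 64.9 CPM with GNF-7 and at 66.8, 72.2 and 64.7 CPM in vehicle, with overlapping libraries and a log2 fold change of -0.04 (95% interval -0.13 to 0.05, adjusted p 0.48). HMGB3 rose from 33.5, 34.5 and 33.7 CPM to 55.2, 47.3 and 52.5 CPM (0.61, SE 0.058, adjusted p 4.39e-14), to 76.97% of its cycling mean. No library of HMGB3 with GNF-7 at 24 h was as high as the lowest cycling library, at 64.8 CPM. HMGB2 rose against HMGB1 within libraries by 0.39 at 24 h and by 0.26 at 6 h (exact permutation p 0.1 for each).

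Per kilobase of principal transcript HMGB2 was the highest of the 3 in cycling cells, at 172 ± 4.77 CPM per kb, with HMGB1 at 72.9 ± 0.900 and HMGB3 at 18.9 ± 0.815 (SD, n = 3). With GNF-7 at 24 h the levels per kb were 35.0 ± 0.717 for HMGB2, 15.5 ± 0.859 for HMGB1 and 14.5 ± 1.13 for HMGB3. HMGB2 was highest with either length, whereas the order of HMGB1 and HMGB3 at 24 h turned round with the length of all annotated exons (11.02 and 13.03 CPM per kb).

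The interaction asked whether the GNF-7 effect differed between 24 h and 6 h. Of the 10 members 9 were called with a lower and 1 with a higher log2 fold change at 24 h, where 18.0% of all genes tested were called lower and 12.8% higher. The difference was largest for LMNB1, at -1.15 (SE 0.090, edgeR adjusted p 8.46e-17), followed by SUN2 at -0.60 (adjusted p 1.83e-13). It was -0.39 for LMNA, -0.38 for LMNB2, -0.37 for LBR, -0.32 for SUN1, -0.30 for HMGB1 and -0.23 for EMD. HMGB3 was the member with a positive difference (0.34, adjusted p 8.96e-04). HMGB2 had a difference of -0.18 (adjusted p 0.0252), and that call was lost in 6 of 24 alternatives, with values from -0.17 to -0.13: the stricter filter, and the omission of replicate 1 or 3 from the vehicle group at 6 h, of replicate 2 from the vehicle group at 24 h or from GNF-7 at 6 h, or of replicate 3 from GNF-7 at 24 h.

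Vehicle libraries of senescent cells at 24 h and 6 h showed what moved without GNF-7. Of the 10 members 1 was called lower, LMNB2 (-0.17, edgeR adjusted p 7.33e-04), and 0 were called higher, where 9.29% of all genes tested were called lower and 9.26% higher. LMNB2 was at 137 to 150 CPM at 24 h and at 160 to 165 CPM at 6 h, without overlap. The other 9 values lay between -0.12 (HMGB3) and 0.07 (EMD). LMNB1 had a value of -0.005, with a 95% interval from -0.12 to 0.11, and HMGB2 one of 0.04 (-0.05 to 0.12). With total counts the all-gene median was -0.10 in place of 0.01, the share of calls that were higher was 12.5% in place of 49.9%, and 5 members were called lower. SUN1 (-0.10, adjusted p 0.0544) and SUN2 (-0.10, adjusted p 0.072) were close to the threshold, and were called in 8 and 6 of 24 alternatives.

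Over the 5 groups cycling cells had the highest mean of every member. For LMNB1, LMNB2, SUN1, SUN2 and HMGB1 the order from high to low was cycling, vehicle 6 h, vehicle 24 h, GNF-7 6 h, GNF-7 24 h, and the libraries of vehicle at 6 h and 24 h overlapped for LMNB1, SUN2 and HMGB1. For LMNA and LBR vehicle at 24 h stood before vehicle at 6 h, again with overlap. For EMD the senescent groups followed as vehicle 24 h, GNF-7 6 h, vehicle 6 h and GNF-7 24 h, and for HMGB2 as GNF-7 6 h, vehicle 24 h, vehicle 6 h and GNF-7 24 h, and for both genes each neighbouring pair among these 4 groups overlapped. For HMGB3 the order was cycling, GNF-7 24 h, GNF-7 6 h, vehicle 6 h, vehicle 24 h, and no neighbours overlapped.

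The other genes of the nuclear envelope were read from lists of known components. Of 31 nuclear pore genes tested 30 were called lower in senescence and 0 higher, with a median log2 fold change of -1.06, where 34.4% of all genes tested were called lower and 35.6% higher and their median was 0.06. POM121C was the exception, at -0.09, a value that turned to 0.04 with total counts and 0.06 under the stricter filter, and it was named after its value was seen. It has a near-identical copy in POM121, so its counts are uncertain. The genes with the smallest p were NDC1, a membrane ring protein, at -1.80, NUP188 at -1.51, NUP205 at -1.48 and NUP155 at -1.38, the last 3 being scaffold components. With GNF-7 at 24 h 26 of the 31 were called lower and 1 higher (median -0.27), against 29.7% lower and 29.3% higher of all genes tested (median 0.04). Those called lower included NUP205 (-0.88) and NUP153 (-0.73), which lies in the basket on the nuclear side. AAAS was the 1 called higher (0.49) and was named after its value was seen.

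Among 15 inner membrane and lamina partners tested, 9 were called lower and 4 higher in senescence (median -0.31), against 34.4% lower and 35.6% higher of all genes (median 0.06). TMPO, which encodes the lamin-binding LAP2 proteins, fell from 301 to 51.7 CPM (log2 fold change -2.54, SE 0.046, edgeR adjusted p 1.47e-49), between LMNB1 and HMGB2 in size. NRM (-1.48), BANF1 (-1.12) and NEMP1 (-1.07) fell as well. The 4 called higher were IFFO1 (0.648), TOR1B (0.552), LEMD2 (0.209) and NARF (0.175). These were named after their calls were seen, and their values in the alternatives were not read. The median of the list in senescence was -0.18 with total counts and -0.16 under the stricter filter. With GNF-7 at 24 h 13 of the 15 were called lower and 1 higher (median -0.40), where the shares of all genes were 29.7% and 29.3% (median 0.04). TMPO was at -1.10 and TMEM201 at -0.81, and IFFO1 was the 1 called higher (0.428).

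**Figure D4:**
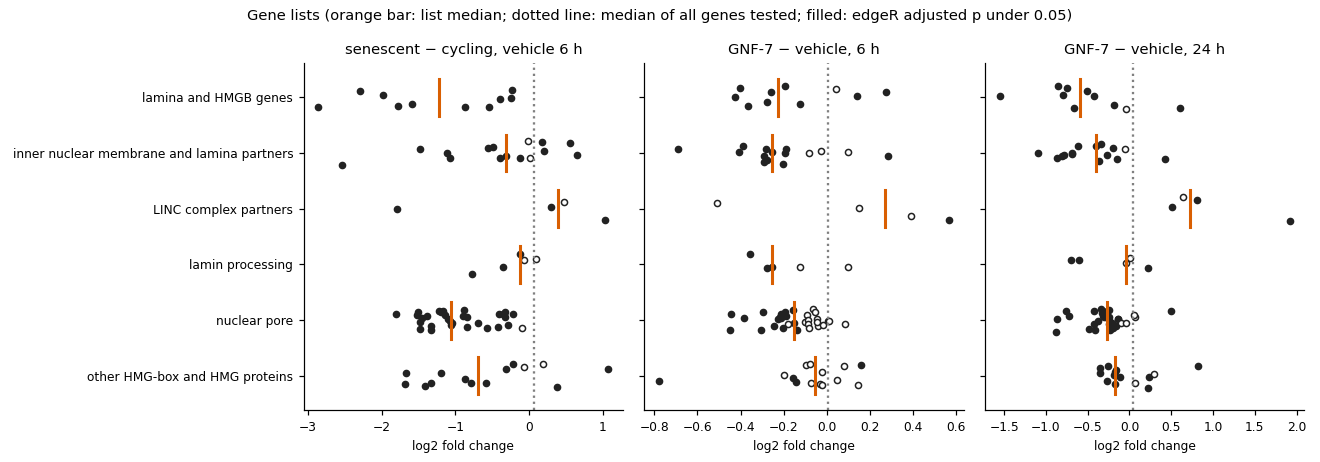
Log2 fold change (horizontal axes) of each tested gene of the 10 members and of 5 lists, for senescence and for GNF-7 at 6 h and 24 h; filled points are called by edgeR, orange bars are list medians and the dotted line is the median of all genes tested. Nuclear pore genes lie almost wholly below 0 in senescence (median -1.06), and the 4 nesprin genes lie above 0 with GNF-7 at 24 h.

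Of 4 nesprin genes tested, which encode the outer-membrane partners of SUN1 and SUN2, 3 were called higher and 0 lower with GNF-7 at 24 h (29.3% and 29.7% of all genes tested), and 1 was called higher and 0 lower at 6 h (17.9% and 21.4%). At 24 h SYNE1 rose by 0.81 on the log2 scale, from 47.7 to 83.8 CPM (SE 0.050, edgeR adjusted p 2.49e-22), and by 0.57 at 6 h, and SYNE2 rose by 0.50 at 24 h. SYNE4 also rose (1.92), but from 0.381 to 1.46 CPM, and SYNE3 was not called (0.65, adjusted p 0.132). At 6 h SYNE2 (0.15), SYNE3 (0.39) and SYNE4 (-0.51) were not called. In senescence SYNE2 fell by 1.80, while SYNE1 rose by 0.31 and SYNE4 by 1.03. The SYNE4 call in senescence was lost without a filter on low counts (1.05), with limma voom (0.96), and without cycling replicate 2 (0.93) or 3 (0.96) or senescent vehicle 6 h replicate 3 (0.70).

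Of the 5 genes that process prelamins, 3 were called lower in senescence and 0 higher (median -0.12), beside 34.4% and 35.6% of all genes tested (median 0.06). ICMT, which methylates the farnesylated end, fell by 0.77, FNTB, the farnesyltransferase beta subunit, fell by 0.35, and ZMPSTE24, the protease that matures lamin A, fell by 0.12 with an adjusted p of 0.0422 (edgeR). FNTA was not called in senescence (0.10, edgeR adjusted p 0.0882), but was called higher with total counts (0.235) and under the stricter filter (0.253). FNTA was also called higher without mitochondrial genes (0.119), with only the groups compared (0.161) and without cycling replicate 3 (0.171). The calls of ZMPSTE24 and FNTB were lost with total counts (0.017 and -0.22) and under the stricter filter (0.035 and -0.20). In these 2 settings 1 of the 5 was called lower and the median was 0.017 and 0.035. ZMPSTE24, whose libraries overlapped, was also not called with RLE size factors, DESeq2, no filter, no mitochondrial genes or only the groups compared, or without cycling replicate 2 or 3 or senescent vehicle 6 h replicate 2 or 3, at -0.13 to -0.06. At 24 h of GNF-7 ICMT fell by 0.70 and ZMPSTE24 by 0.60, and FNTA rose by 0.22.

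Of 14 other HMG proteins tested 10 were called lower and 2 higher in senescence (median -0.69), beside 34.4% and 35.6% of all genes (median 0.06). HMGA1 (-1.68), HMGN2 (-1.67), the FACT subunit SSRP1 (-1.41) and the mitochondrial HMG-box protein TFAM (-1.33) had the smallest p. With GNF-7 at 24 h 9 were called lower and 3 higher (median -0.17), beside 29.7% and 29.3% of all genes (median 0.04), and under the stricter filter 4 in place of 9 were called lower. HMGA2 fell by 0.78 at 6 h and by 0.35 at 24 h, and HMGA1 rose by 0.22 at 24 h. Of the receptors for extracellular HMGB1, 4 of 6 were tested. In senescence 1 was called higher and 0 lower, and with GNF-7 at 24 h 2 were called higher and 1 lower, beside the same shares of all genes. CD24 rose in senescence (0.96) and with GNF-7 at 6 h (0.83) and 24 h (0.66). Its level was low, with a mean of 1.94 CPM in cycling cells and of 3.73 to 7.88 CPM in the senescent groups. TLR4 was at 0.06 in senescence, where it was called with total counts (0.19), under the stricter filter (0.21) and with only the groups compared (0.12), and it fell by 0.57 with GNF-7 at 6 h and at 24 h. HAVCR2 rose with GNF-7 at 24 h (2.50, edgeR adjusted p 0.00312), from 0.0823 to 0.484 CPM, so on few counts, and was not called in senescence (0.67) or at 6 h (1.64, adjusted p 0.0517). AGER had a value of 0.33 with GNF-7 at 24 h (edgeR adjusted p 0.0538), close to the threshold. It was called with the replicate block (0.31, adjusted p 0.0182), total counts (0.361), no filter (0.309), the stricter filter (0.434) and only the groups compared (0.335). AGER was also called in some of the fits with 1 library left out, where its value ranged from 0.114 to 0.434.

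The genes whose log2 CPM over the 15 libraries followed LMNB1 most closely, out of 11207 compared, were CCT8, SMC2, ANP32E, KPNB1 and SMC4, with Pearson r between 0.9975 and 0.9985. SMC2 and SMC4 are the core condensin subunits. Their log2 fold changes were -1.80 and -1.74 in senescence and -0.94 and -0.98 with GNF-7 at 24 h. In senescence CCT8, which had the highest r, was at -0.965, KPNB1 at -1.131 and ANP32E at -1.996, beside -2.862 for LMNB1. A high r thus does not mean a change of the same size. For HMGB2 the closest genes were SET, H2AZ1, USP39, FAM136A and CDC25B (r between 0.9933 and 0.9967). Of these the histone variant gene H2AZ1 had -2.12 in senescence and -0.20 with GNF-7 at 24 h. For LMNA they were KCNMA1, CAVIN1, TUBA4A, UGCG and SELENOT (r between 0.9909 and 0.9959), and for LBR they were RBMX, PTGES3, CYRIB, HNRNPA2B1 and HDAC2 (r between 0.9972 and 0.9977). These correlations describe libraries that fall into 5 groups and share the scaling, so most of each r comes from differences between groups.

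As a reference, MKI67, a marker of dividing cells, fell in both comparisons, from 509 to 149 CPM in senescence and from 125 to 39.1 CPM with GNF-7 at 24 h (log2 fold changes -1.77 and -1.68), and CDK1 fell by 2.695 in senescence and fell by 1.875 with GNF-7 at 24 h. CDKN1A, the p21 inhibitor gene, rose by 1.43 in senescence and fell by 0.26 with GNF-7 at 24 h. LMNB1, LMNB2, LMNA, LBR, EMD, SUN1, SUN2 and HMGB1 moved in the same direction as MKI67 and CDK1 in both comparisons. HMGB2 fell in senescence and was not called with GNF-7 at 24 h, and HMGB3 moved in the opposite direction with GNF-7. Whether the share of dividing cells had a part in these values was not tested.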

How the data were processed

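RNA of HT-1080 cells was sequenced in 15 libraries in 5 groups of 3, assigned from the titles and time labels, and columns were matched by library name. The authors deposited raw counts of reads per Ensembl gene. Per the submitters' processing notes, bcl2fastq 2.20.0.422, STAR 2.7.9a, featureCounts 1.5.1 and GRCh38 were used, and per the labels' protocols the kit was stranded. The annotation release, the strand setting and the treatment of overlapping or multiply mapped reads are not given in the sources used here. An entry broken over 3 lines was left out. Names matched 60400 of 60670 identifiers, and promoter windows are from RefSeq on GRCh38.p14. Coordinates, lengths and overlaps are from GENCODE 29, which holds 58452 of the 60670 identifiers. Overlaps with genes absent from that release could not be seen. P-values measure the spread between these libraries. In every pair within a group, libraries differed by more than sampling noise.

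Counts were tested with edgeR 4.0.16 (R 4.3.3) by quasi-likelihood, robust, after filterByExpr (18563 genes) and TMM scaling, in 1 fit of 15 libraries with 5 contrasts and Benjamini-Hochberg adjustment over all genes tested (threshold 0.05). CPM uses the TMM-scaled library sizes, SE is the log2 fold change divided by the square root of F, and 95% intervals are normal approximations. Alternatives were RLE size factors, total counts, no mitochondrial genes, no filter, a stricter filter (average of at least 5 CPM), DESeq2 1.42.0, limma voom 3.58.1, only the groups compared, a replicate block and each library left out. Same-numbered libraries deviated together in the GNF-7 comparison at 24 h (r 0.154, 0.12 and 0.11 over 11233 genes), and not consistently elsewhere. The block fit held a term for the replicate number over all 15 libraries, so it entered all 5 contrasts. The code was tested on simulated data. The first criterion, on the number of changed genes recovered, was not met with edgeR and was then replaced. The new criterion covered changed genes with a mean of at least 5 CPM and the share of false calls. The changed genes that were missed lay below 5 CPM. Members, lists and naming rules (all members, per list the smallest p, per lead member the 5 most correlated genes) were chosen with earlier results of these data known. These intervals include the spread between libraries.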

Additional observations from a re-analysis of the deposited data

Results flagged for a closer look

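For all 10 genes the test of the difference itself gave unequal GNF-7 effects at 24 h and at 6 h (edgeR interaction, adjusted p under 0.05). For HMGB2 that call was lost in 6 of 24 alternatives. The log2 difference was -1.153 for LMNB1, -0.597 for SUN2, -0.391 for LMNA, -0.378 for LMNB2, -0.369 for LBR, -0.315 for SUN1, -0.304 for HMGB1, -0.230 for EMD and -0.178 for HMGB2, and 0.336 for HMGB3. Of all genes tested 18.0% had a lower and 12.8% a higher effect at 24 h. The 6 h and 24 h effects have their own vehicle libraries. The share of mitochondrial counts rose over the same groups, and without these genes in the scaling all 10 members were again called.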

How the results depend on the processing

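Of 50 member results (10 genes in 5 comparisons) 36 kept their direction and their side of the threshold in each of 24 alternatives, among them every senescence result. Of the other 14 results 9 were in the comparison of vehicle at 24 h with 6 h. There, with total counts, LMNA (-0.081), LBR (-0.079), EMD (-0.037) and HMGB2 (-0.075) changed sign, and under the stricter filter (average of 5 CPM) LMNB1 did (0.001). The same filter changed the sign of HMGB2 with GNF-7 at 24 h (0.062). Leaving out 1 library gave LMNB1 -0.032 to 0.028, LBR -0.010 to 0.072, HMGB1 -0.042 to 0.005 and HMGB2 -0.009 to 0.070 in the vehicle comparison, and HMGB2 -0.075 to 0.003 with GNF-7 at 24 h. The number of members called in the vehicle comparison, 1, was 5 with total counts, 3 without mitochondrial genes, in only the groups compared and with the replicate block, 2 with the stricter filter, DESeq2 or limma voom, and 1 to 3 when a library was left out (2 without vehicle 6 h replicate 2, 3 without GNF-7 6 h replicate 2). The block changed no other member call and, of the other named genes, that of AGER with GNF-7 at 24 h (0.314). Of 117 results of other named genes 95 kept direction and call in every alternative. Sign changes among them were POM121C in senescence (0.039 with total counts, 0.057 under the stricter filter), TM7SF2 in senescence (0.095, 0.113 and, with only the groups compared, 0.022), ZMPSTE24 in senescence (0.017 and 0.035), HMGA1 at 6 h under the stricter filter (0.018) and FNTB at 24 h (-0.003 with RLE factors and DESeq2, -0.010 without mitochondrial genes, -0.021 without a filter), and leaving out 1 library gave -0.130 to 0.038 for TM7SF2 in senescence and -0.055 to 0.040 for FNTB at 24 h. The cause of these changes was not tested. The stricter filter shifted the log2 fold changes of the shared genes by 0.15 in senescence and 0.10 with GNF-7 at 24 h, and total counts by 0.13 in senescence. The lowest member counts were those of LMNB1 with GNF-7 at 24 h (326, 349 and 317), so its values there are the least precise of the set by depth.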
